A study of Mus musculus with 10 samples.

Results

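Transcripts of the proteasome were measured in the tibialis anterior, the fast muscle along the shin that lifts the foot. The mice were on a C57BL/6 background, were 6 months of age and had been without food for 3 h. The genes were taken by name, as every row whose symbol starts with Psma to Psmg followed by a digit, which gave 48 of the 13492 genes in the deposited table. RNA came from 5 libraries labelled Lrtm1 KO and from 5 libraries labelled WT, which the series describes as mice with a floxed Lrtm1 allele. The 5 KO libraries are replicates 1 to 5, and the 5 WT libraries are replicates 1, 3, 4, 5 and 6. The mice came from 3 litters, of which litter 108 gave 2 KO and 1 WT libraries, litter 110 gave 1 and 2, and litter 112 gave 2 and 2. The deleted part of Lrtm1, the Cre line and the tissue in which it acts are not stated in any source used here. The series' design text gives 4 mice per group where the labels give 5 libraries per group, and all 10 were used as labelled. Nothing in the labels states that libraries and animals match one to one, so the p-values measure the spread between these libraries, which may be technical.

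The proteasome is the cell's main protease for proteins tagged with ubiquitin. Its core particle is a barrel of stacked rings, with outer rings of alpha subunits that gate the entrance and inner rings of beta subunits, some of which cut the protein chain. A regulatory particle of ATPases (Psmc) and other subunits (Psmd) binds the ends of the barrel, recognises ubiquitin, removes it and unfolds the substrate, while the Psme proteins are alternative caps. Dedicated chaperones (Psmg) help the core assemble, and interferon induces Psmb8, Psmb9 and Psmb10, which replace Psmb5, Psmb6 and Psmb7 in the immunoproteasome of immune and inflamed cells. In skeletal muscle the proteasome breaks down myofibrillar proteins and is best known for its part in atrophy.

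Stretches of promoter are printed here for Psmb5, Psmb6 and Psmd9, which have, ending at most 39 bases before the start, a match to the motif bound by NRF1 and NRF2 (encoded by Nfe2l1 and Nfe2l2), the factors known to induce proteasome genes, and for the pair Psmb9 and Tap1, which are transcribed away from each other out of a shared stretch. Sequences are RefSeq promoter windows on GRCm38.p6, 250 bases before to 50 after each start, which were matched for 41 of the 48 genes and gave 45 windows. The core of the antioxidant response element was searched as TGACNNNGC on both strands, without regard to overlap with other motifs. It occurred in 6 of 45 windows (13.3%), namely those of Psmb5, Psmb6, Psmc6, Psmd9, Psmd12 and Psme4, and in 12.4% of all 32851 windows. The matches of Psmc6 and Psmd12 end 219 and 239 bases before the start and that of Psme4 overlaps it, and these are not printed. Capitals mark the match. The first sequence lies at chr14:54618026-54618050 (minus strand), the second at chr11:70525340-70525356 (plus strand) and the third at chr5:123228151-123228175 (plus strand).
Psmb5: tgaagttgTGACGTCGCggcgttgc
Psmb6: aaagagagTGACGGAGC
Psmd9: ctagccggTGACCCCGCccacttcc

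The annotated starts of Psmb9 and Tap1 lie 226 bases apart on chromosome 17. The 225 bases between them are printed at chr17:34187331-34187555 on the minus strand, the strand of Psmb9, and the capitals mark the only match to CCAAT on either strand.
Psmb9 to Tap1: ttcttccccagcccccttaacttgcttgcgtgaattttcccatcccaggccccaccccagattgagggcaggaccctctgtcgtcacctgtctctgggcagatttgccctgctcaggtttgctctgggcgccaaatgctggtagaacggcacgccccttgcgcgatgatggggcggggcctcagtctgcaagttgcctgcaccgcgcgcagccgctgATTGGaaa

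A match to CCAAT was found in 33.3% of the proteasome windows and in 37.4% of all windows. The interferon regulatory factor element, searched on both strands as a pair of GAAA with any 2 bases between them, occurred in 5 of 45 windows (11.1%) and in 3.44% of all windows. These were the windows of Psmb3, Psmd4, Psmd9, Psme1 and Psmg4, none an immunoproteasome gene, and the matches of Psme1 and Psmg4 lie after the start. The gamma-activated site, searched as TTCNNNGAA, occurred in 6.67% of the proteasome windows and 8.3% of all windows. Of the immunoproteasome genes, Psmb8 held a match to the gamma-activated site, in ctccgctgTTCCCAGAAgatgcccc at chr17:34198090-34198114 (plus strand).

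Values are the adjusted log2 CPM (counts relative to the library's total) deposited by the authors, and how many reads lie behind each is unknown. Lrtm1 itself was 6.20, 6.12, 6.10, 5.97 and 6.21 log2 CPM in KO 1 to 5, against 5.61, 5.66, 5.73, 5.65 and 5.78 in WT 1, 3, 4, 5 and 6, and so was not lower in the libraries labelled KO. The difference was 0.44 (SE 0.07, limma adjusted p = 0.0344), and KO and WT are used here as the labels of the libraries. Myofibre markers, which define the labelled tissue, summed to between 95300 and 98900 CPM in KO libraries and between 84700 and 98500 CPM in WT libraries. Adipocyte markers summed to between 69.1 and 79.5 CPM in KO libraries and between 80.0 and 96.8 CPM in WT libraries, a sum in which Fabp4 weighs most. Over the 6 tested adipocyte genes the median log2 difference was -0.938 with 6 of 6 below 0, against 51.4% of all genes. An unadjusted p under 0.05 was found for 5 of them, against 10.1% of all genes. None passed in limma with the removed terms counted (0.335% of all genes), and 4 passed with litter and genotype alone (8.62% of all genes). The part of the adipocyte genes in the proteasome results was not tested.

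Of the 48 genes, 47 reached the minimum mean of 0 log2 CPM and were tested. The one left out was Psmc3ip, a meiotic recombination factor, at a mean of -1.17 log2 CPM in KO libraries and -0.81 in WT libraries. Psmc3ip and Psme3ip1 carry the names of the subunits they bind and are not part of the particle, and Psme3ip1 was 4.28 ± 0.06 log2 CPM in KO libraries and 4.24 ± 0.08 in WT libraries (SD, n = 5 each).

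No proteasome gene differed between KO and WT libraries past an adjusted p of 0.05, while small differences below 0 were common in the core particle. In limma with litter, genotype and the terms that had been removed from the deposited values counted, 0 of 47 passed, against 41 of 12223 genes in all (0.335%). At an unadjusted p under 0.05 there were 3 of 47 (6.38%), namely Psma1, Psma5 and Psmd14, against 10.1% of all genes, so the share of the proteasome genes was not above the background. When limma was fitted with litter and genotype alone, which counts 6 residual degrees of freedom where 3 remain, 5 of 47 passed (10.6%), against 8.62% of all genes. Psmd14, Psma7, Psmc3 and Psma1 were lower in that fit, 4 of 47 against a background of 3.48%, and Psme4 was higher, 1 of 47 against 5.15%. Which of them passed depended on the libraries. The number of calls moved over all genes too, from 101 of the 12223 without WT 1 to 1709 without WT 5. Leaving out KO 3 or WT 1, with 1.33% and 0.826% of all genes called, left none of the proteasome genes, leaving out KO 1, KO 2, KO 5 or WT 3, with between 2.81% and 3.93% called, left Psmd14 alone. Leaving out KO 4 left 3 (1347 of all genes called) and WT 5 left 4. Leaving out WT 4 gave 6 (8.28%), with Psma5, Psmc1 and Psmc2 among them, and leaving out WT 6 gave 5 (9.04%), with Psma2 among them and Psme4 not.

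The direction was less even than over all genes. The log2 difference, KO minus WT, was below 0 in 34 of 47 genes (72.3%), against 51.4% of all genes, and its median was -0.056, against -0.004. The median half-width of the 95% intervals was 0.14, wider than most of these differences. Every KO library lay below every WT library in 10 genes (21.3%), against 7.63% of all genes, and these were Psma1, Psma2, Psma6, Psma7, Psmb4, Psmb9, Psmc3, Psmc6, Psmd14 and Psme2. The reverse held for 1 gene, Psme4 (2.13%), against 8.56% of all genes. Taken by litter, the proteasome genes had a median of -0.051 within litter 108, -0.035 within 110 and -0.068 within 112, and the sign was the same in all 3 for 29 of 47 genes (61.7%), against 47.9% of all genes. The values were adjusted by the authors with genotype kept, so a lack of overlap is a description of the adjusted values.

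**Figure D1:**
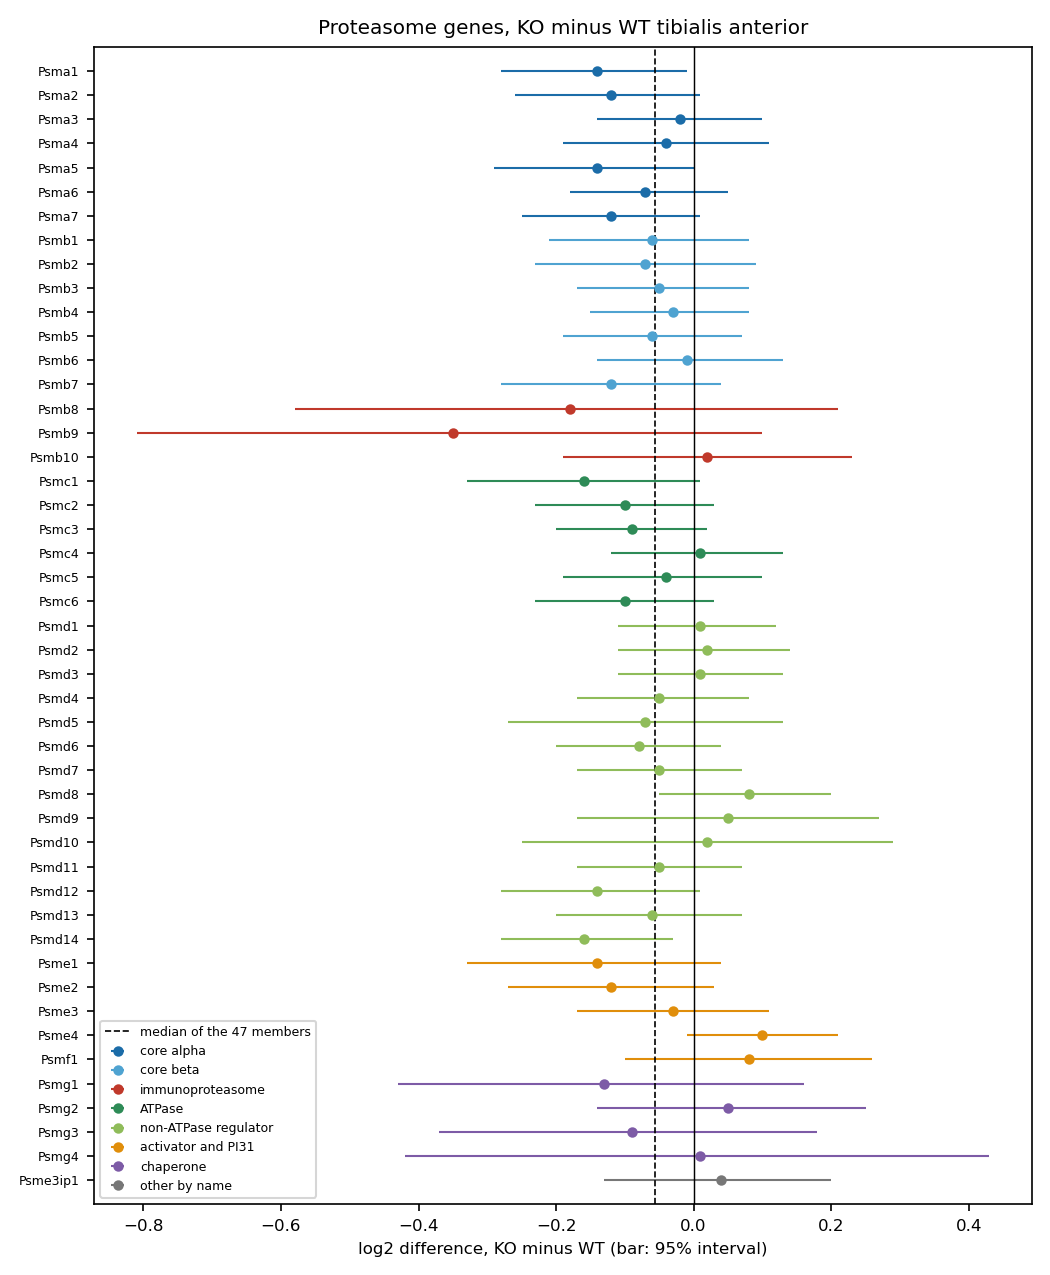
Log2 difference (KO minus WT, x axis) of each tested proteasome gene, grouped by role (y axis), with the 95% interval from limma as a bar, the median of the 47 genes as a dashed line and 0 as a solid line. Core alpha and beta genes all lie left of 0, by between -0.14 and -0.01, and the widest intervals belong to the low-level Psmb8, Psmb9 and Psmg4.

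The alpha subunits, which form the outer rings and the gate of the core, were below 0 in 7 of 7 genes, with a median of -0.124. Psma1 was 5.45, 5.41, 5.44, 5.46 and 5.44 log2 CPM in KO 1 to 5, against 5.60, 5.54, 5.63, 5.66 and 5.49 in WT 1, 3, 4, 5 and 6. All 5 KO libraries lay below all 5 WT libraries, WT 6 being the closest. The difference was -0.14 (95% interval -0.28 to -0.01, limma adjusted p = 0.465, or 0.04996 with litter and genotype alone). Psma7 was 5.10, 5.06, 5.08, 5.07 and 5.10 log2 CPM in KO 1 to 5, against 5.20, 5.18, 5.24, 5.24 and 5.16 in the WT libraries in the same order as before. The KO libraries were again all lower, and the difference was -0.12 (-0.25 to 0.01, limma adjusted p = 0.521, or 0.0300 with litter and genotype alone). Psma2, Psma5 and Psma6 differed by -0.12, -0.14 and -0.07, and Psma3 and Psma4 by -0.02 and -0.04. Without WT 5, which had the highest value of the 10 libraries in 24 of the 47 genes, the median of the alpha genes was -0.089.

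The constitutive beta subunits were also below 0 in 7 of 7 genes, with a median of -0.056 and a range from -0.12 to -0.01. Psmb5, Psmb6 and Psmb7 carry the chymotrypsin-like, caspase-like and trypsin-like cutting sites. Psmb5 was 6.38, 6.36, 6.32, 6.34 and 6.44 log2 CPM in KO 1 to 5, against 6.42, 6.40, 6.50, 6.35 and 6.45 in WT 1, 3, 4, 5 and 6. Psmb6 was 5.94, 5.97, 5.91, 5.95 and 6.01 log2 CPM in KO libraries, against 5.96, 5.98, 6.00, 5.84 and 6.05 in WT libraries. Psmb7 was 7.82, 7.68, 7.77, 7.62 and 7.72 log2 CPM in KO libraries, against 7.79, 7.79, 7.85, 8.03 and 7.76 in WT libraries. The groups overlapped in all 3 genes, and the differences were -0.06 (-0.19 to 0.07), -0.01 (-0.14 to 0.13) and -0.12 (-0.28 to 0.04). WT 5 was the lowest of the 10 libraries for Psmb6 and the highest for Psmb7. Psmb4 was the one constitutive beta gene without overlap, at 5.92 to 5.96 log2 CPM in KO libraries and 5.96 to 5.99 in WT libraries, a difference of -0.03. Summed over the 14 constitutive core genes, the level was 941.7 to 975.2 CPM in KO libraries and 998.4 to 1051 CPM in WT libraries, with no overlap. The beta genes alone overlapped, at 562.4 to 591.5 CPM in KO libraries and 591.4 to 637.9 CPM in WT libraries. The alpha genes alone did not, at 375.3 to 388.9 and 394.0 to 413.1 CPM, KO then WT.

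**Figure D2:**
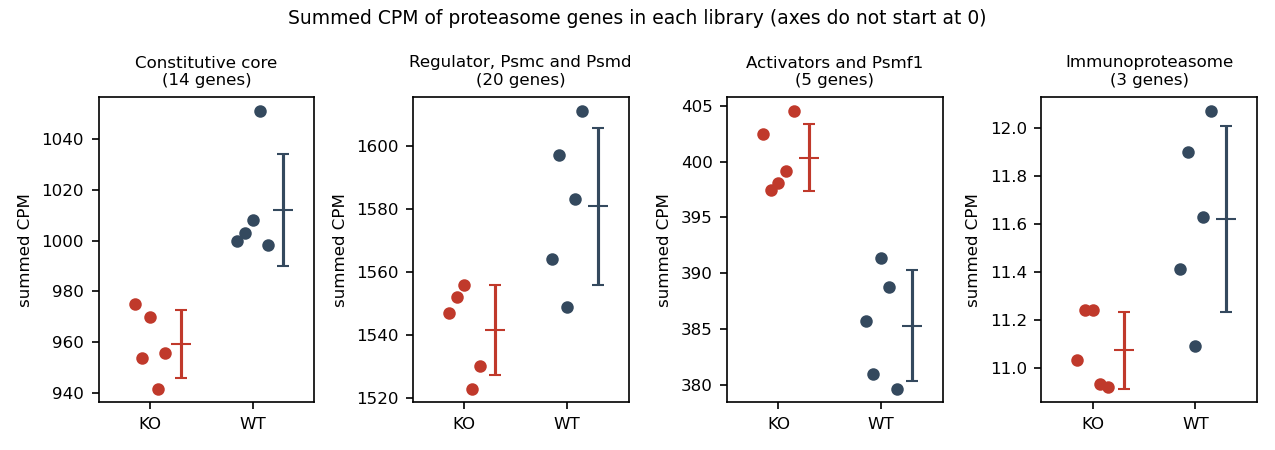
Summed CPM (y axis, not starting at 0) of the constitutive core, the regulatory particle, the activators with Psmf1, and the immunoproteasome genes in each library, KO left of WT, with the mean and SD as a bar. The constitutive core separates the groups downwards in KO libraries, the activators with Psmf1 separate them upwards, and the other 2 panels overlap. Psme4 gives most of the CPM in the activator panel.

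The immunoproteasome genes were low in this muscle. Per kb of transcript, Psmb8 was 1.43 ± 0.167 CPM in KO libraries and 1.63 ± 0.260 CPM in WT libraries, where its constitutive counterpart Psmb5 was 91.8 ± 3.02 and 95.5 ± 3.74 CPM per kb (SD, n = 5 each). Psmb9 was 0.826 ± 0.0853 and 1.06 ± 0.117 CPM per kb, against 77.9 ± 1.97 and 78.4 ± 4.00 for Psmb6, KO then WT. Psmb10 was the most abundant of the immunoproteasome genes, at 5.82 ± 0.185 CPM per kb in KO libraries and 5.75 ± 0.377 in WT libraries. As a share of its counterpart per kb, Psmb8 was 1.56% in KO libraries and 1.71% in WT libraries, Psmb9 was 1.06% and 1.35%, and Psmb10 was 3.20% and 2.93%. The log2 ratios of Psmb9 to Psmb6 ran from -6.08 to -5.63 in KO libraries and from -5.69 to -5.14 in WT libraries, and overlapped, as did the ratios of the other 2 pairs.

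**Figure D3:**
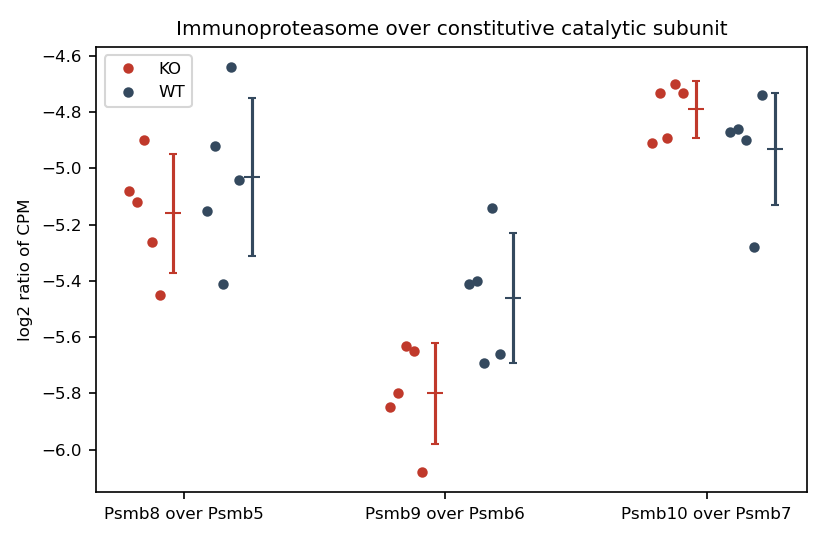
Log2 ratio of each immunoproteasome catalytic gene to its constitutive counterpart (y axis) in each library, KO left of WT, with the mean and SD as a bar. The groups overlap in all 3 pairs, and Psmb9 over Psmb6 has the largest gap between means, -5.80 in KO libraries and -5.46 in WT libraries.

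Psmb9 had the difference farthest below 0 of the proteasome genes, and the one farthest from 0 in size. It was 0.09, 0.17, 0.28, 0.30 and -0.07 log2 CPM in KO 1 to 5, against 0.55, 0.58, 0.30, 0.71 and 0.39 in WT 1, 3, 4, 5 and 6. The KO libraries lay below the WT libraries, with KO 4 and WT 4 equal at the 2 decimals printed. The difference was -0.35 (-0.81 to 0.10, limma adjusted p = 0.623), and -0.285 without WT 5. Psmb8 was 1.29, 1.25, 1.42, 1.08 and 0.99 log2 CPM in KO libraries, against 1.27, 1.48, 1.09, 1.70 and 1.42 in WT libraries, and the groups overlapped. Its difference was -0.18 (-0.58 to 0.21, limma adjusted p = 0.788), and litter 112 alone was far below 0, at 0.00, 0.14 and -0.52 in litters 108, 110 and 112. Psmb10 was 2.91, 2.95, 2.88, 2.92 and 3.00 log2 CPM in KO libraries, against 2.91, 2.93, 2.95, 2.75 and 3.02 in WT libraries, a difference of 0.02 (-0.19 to 0.23). The median of the 3 genes, -0.184, was -0.081 without WT 5 and -0.312 without KO 3. Leukocyte and macrophage markers, cells in which these genes are abundant, summed to between 67.1 and 71.3 CPM in KO libraries and between 67.0 and 73.4 CPM in WT libraries. Of the 10 tested markers 7 were below 0, against 51.4% of all genes, and their median was -0.043. In bulk tissue fewer cells of a type and less RNA per cell cannot be told apart.

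The ATPases, which unfold the substrate and open the gate, were below 0 in 5 of 6 genes, with a median of -0.097. Psmc3 was 6.79, 6.79, 6.80, 6.81 and 6.78 log2 CPM in KO 1 to 5, against 6.89, 6.88, 6.88, 6.91 and 6.85 in WT 1, 3, 4, 5 and 6. All KO libraries were lower, and the difference was -0.09 (-0.20 to 0.02, limma adjusted p = 0.584, or 0.0384 with litter and genotype alone). Psmc6 also had no overlap, at -0.10, and Psmc1 and Psmc2 overlapped, at -0.16 and -0.10. Psmc4 was at 0.01 and Psmc5 at -0.04.

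The other subunits of the regulatory particle were more mixed, with 8 of 14 genes below 0 and a median of -0.048. Psmd14, the metalloprotease that removes ubiquitin chains from the substrate, had the smallest p of all the proteasome genes. It was 4.94, 4.94, 4.94, 4.97 and 4.95 log2 CPM in KO 1 to 5, against 5.12, 5.10, 5.12, 5.11 and 5.08 in WT 1, 3, 4, 5 and 6. In the adjusted values the 10 libraries fell into 2 tight sets by genotype, and all 3 litters were below 0, at -0.18, -0.17 and -0.13. Litter and further terms had been removed from these values with genotype kept, so the tightness describes the adjusted values only. The difference was -0.16 (-0.28 to -0.03, a level 0.897 times that of WT, limma adjusted p = 0.380, or 0.00887 with litter and genotype alone). Psmd12, a scaffold subunit, differed by -0.14. Psmd1 and Psmd2, the large scaffolds of the base, and Psmd3, a lid subunit, lay at 0.01, 0.02 and 0.01, and the ubiquitin receptor Psmd4 at -0.05. Psmd8, a lid subunit, was at 0.08 (-0.05 to 0.20). Psmd5, Psmd9 and Psmd10, which act as chaperones of the base and are not in the finished particle, lay at -0.07, 0.05 and 0.02. Summed over the 20 regulatory genes, the level was 1523 to 1556 CPM in KO libraries and 1549 to 1611 CPM in WT libraries, which overlapped.

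Psme4, the nuclear activator that binds the core without ATPases, had the difference farthest above 0. It was 8.19, 8.18, 8.16, 8.18 and 8.22 log2 CPM in KO 1 to 5, against 8.09, 8.06, 8.13, 8.07 and 8.08 in WT 1, 3, 4, 5 and 6. Every KO library was higher than every WT library. The difference was 0.10 (-0.01 to 0.21, limma adjusted p = 0.551, or 0.0409 with litter and genotype alone), and 0.055 after the trend on transcript length was removed. Psmf1, the core inhibitor PI31, was next, at 3.71, 3.70, 3.69, 3.59 and 3.70 log2 CPM in KO libraries and 3.55, 3.63, 3.57, 3.56 and 3.71 in WT libraries. These overlapped, KO 4 being low and WT 6 high, and the difference was 0.08 (-0.10 to 0.26). The interferon-induced activator pair Psme1 and Psme2 lay at 4.11 to 4.34 and 4.33 to 4.44 log2 CPM in KO libraries, and at 4.23 to 4.48 and 4.46 to 4.58 in WT libraries, with differences of -0.14 and -0.12. Psme3, the related nuclear activator, was 5.78 to 5.84 in KO libraries and 5.74 to 5.97 in WT libraries, a difference of -0.03. Psme4 gave most of the CPM of this group, not scaled for length, and the sum over the 5 genes lay at 397.5 to 404.5 CPM in KO libraries and 379.7 to 391.4 CPM in WT libraries. The median difference over the 5 genes was -0.034, with 3 of 5 below 0.

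The core assembly chaperones were low per kb of transcript, with group means between 2.66 and 9.71 CPM per kb, and the groups did not separate in any of them. Psmg1 was 1.90 to 2.25 log2 CPM in KO libraries and 2.04 to 2.32 in WT libraries, and its partner Psmg2 was 3.55 to 3.83 and 3.50 to 3.70. Psmg3 was 1.66 to 1.82 log2 CPM in KO libraries and 1.72 to 1.99 in WT libraries, and its partner Psmg4 was 0.41 to 0.75 and 0.30 to 0.76. The differences of Psmg1 to Psmg4 were -0.13, 0.05, -0.09 and 0.01.

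**Figure D4:**
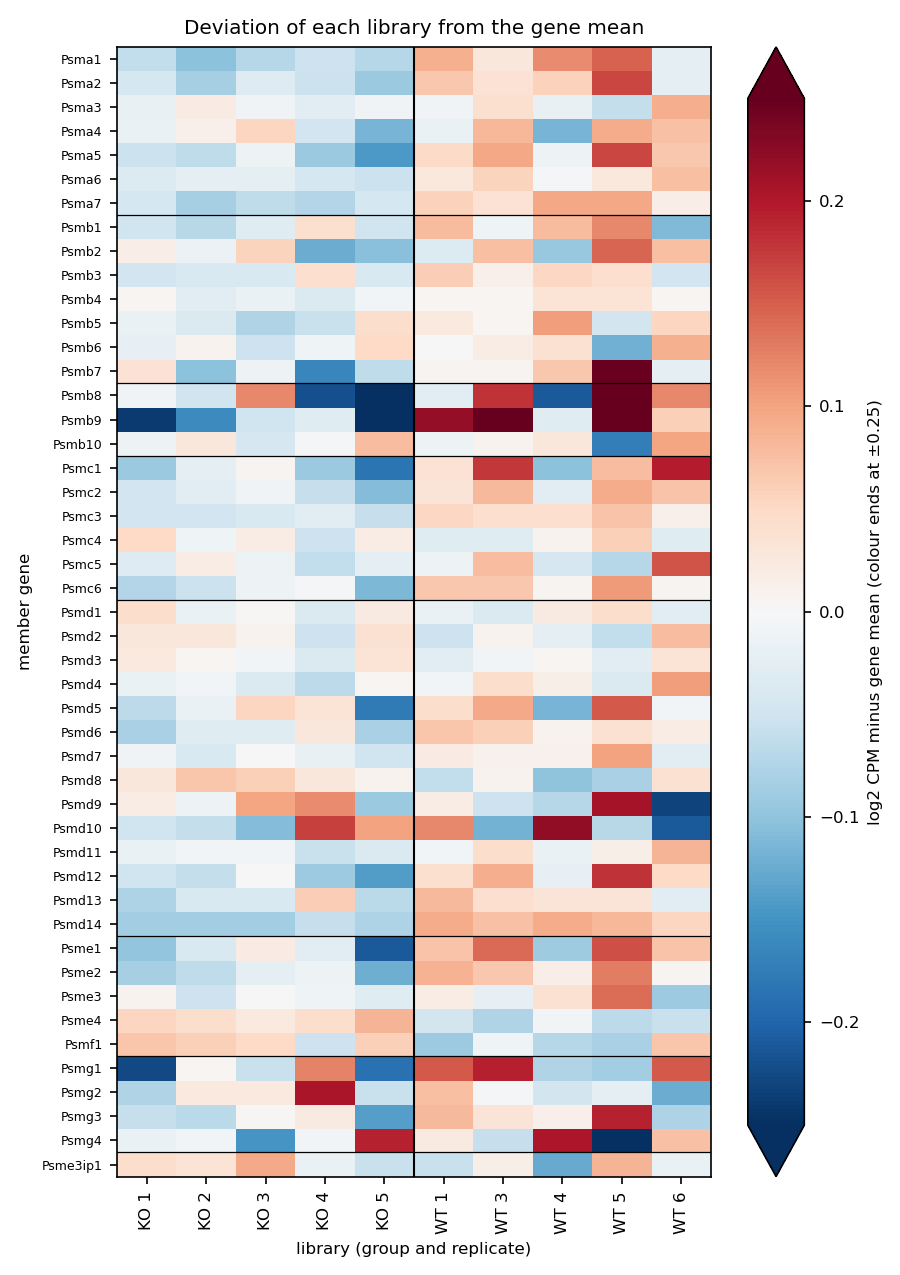
Deviation of each tested proteasome gene (rows, grouped by role) from its own mean over the 10 libraries (columns, KO left of WT), in log2 CPM by colour. WT 5 has the highest value in 24 genes and KO 5 the lowest in 16, and Psme4 has the opposite pattern to most core genes.

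Genes of short transcripts tended to be lower in KO libraries throughout the table, and proteasome transcripts are short. The median of the longest protein-coding transcript was 1541 nt for the tested proteasome genes and 3170 nt for all tested genes. Over 5 classes of all genes by this length, the median difference was -0.043, -0.025, -0.009, 0.012 and 0.046, from the shortest class to the longest. In the shortest class, which holds 28 of the 47, the proteasome genes had a median of -0.068 and 23 were below 0, against 65.2% of all genes in it. There KO lay below WT without overlap in 7 of the 28, against 11.7% of the class. With the trend on length removed from each library, the median over the proteasome genes was -0.026, 32 of 47 were below 0, the alpha genes had a median of -0.087 with 7 of 7 below 0, and the beta genes had -0.016 with 5 of 7. The part of transcript length in the differences was not tested beyond this.

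**Figure D5:**
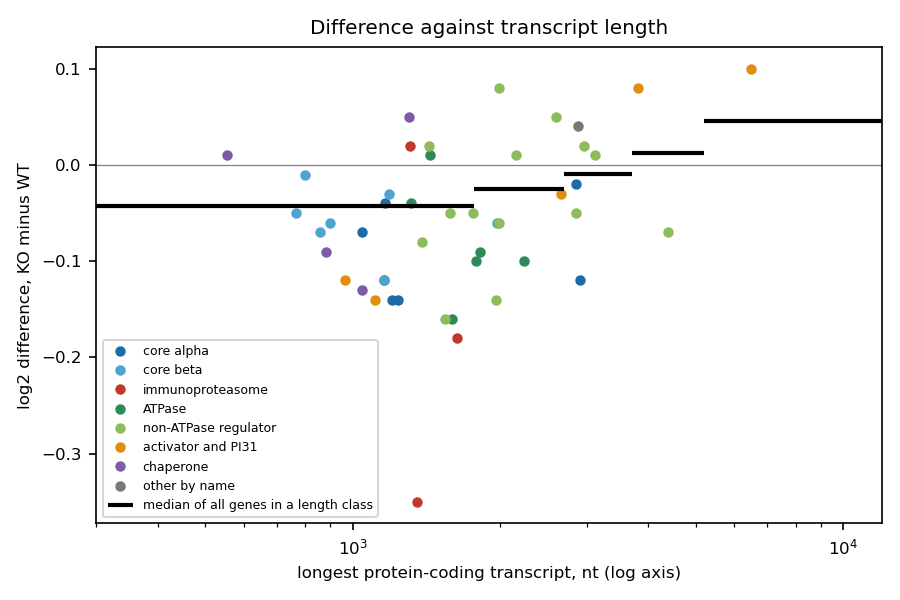
Log2 difference (KO minus WT, y axis) against the length of the longest protein-coding transcript (x axis, log scale), with the proteasome genes as coloured points by role and the median of all genes in 5 length classes. The all-gene medians run from -0.043 to 0.046, and most proteasome genes lie at the short end, Psme4 at the long end.

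Of 3 lists of genes that work with the proteasome or are induced with it, no gene passed in limma with the removed terms counted. In the order given here, 2 of 15, 2 of 13 and 1 of 20 had an unadjusted p under 0.05, against 10.1% of all genes. Of the assembly, docking and regulatory genes outside the naming rule, 7 of 15 tested were below 0 and the median was 0.011. Pomp, which matures the core, was 5.73 ± 0.04 log2 CPM in KO libraries and 5.79 ± 0.05 in WT libraries (SD, n = 5 each), a difference of -0.06 (-0.19 to 0.07). Adrm1, a ubiquitin receptor of the regulatory particle, also differed by -0.06, and the deubiquitinase Usp14 by 0.01. Nfe2l1, whose protein induces proteasome genes when the particle is inhibited, was 9.68 ± 0.04 log2 CPM in KO libraries and 9.66 ± 0.03 in WT libraries, a difference of 0.02 (-0.11 to 0.15). Of the ubiquitin genes, activating enzymes and shuttle proteins, 7 of 13 were below 0, with a median of -0.002.

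The interferon and antigen presentation genes, with which Psmb8, Psmb9 and Psmb10 are known to be induced, were below 0 in 14 of 20, with a median of -0.072. The other 6 were Irf9, Cd74, H2-Aa, H2-Ab1, H2-Eb1 and Irgm1, at 0.08, 0.02, 0.10, 0.18, 0.18 and 0.05. Irf7, a transcription factor of the interferon response, was 0.45 ± 0.08 log2 CPM in KO libraries and 0.95 ± 0.08 in WT libraries (SD, n = 5 each), a difference of -0.50 (-0.88 to -0.12, limma adjusted p = 0.350, or 0.0107 with litter and genotype alone). Tapbp, which loads peptides onto class I molecules, was 4.36 ± 0.04 and 4.49 ± 0.03 log2 CPM, KO then WT, a difference of -0.13 (limma adjusted p = 0.543, or 0.0445 with litter and genotype alone). Tap1, a subunit of the peptide transporter and the neighbour of Psmb9 across the printed stretch of chromosome 17, was 1.59 ± 0.16 log2 CPM in KO libraries and 1.84 ± 0.22 in WT libraries, a difference of -0.25 (-0.61 to 0.11, limma adjusted p = 0.662).

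Some values rest on sequences that reads cannot always separate. A stretch of at least 200 nt at 95% identity or more with another annotated gene was found for 11 of the tested genes, Psma3, Psma4, Psma5, Psmb3, Psmb5, Psmc1, Psmd1, Psmd2, Psmd11, Psme2 and Psmg3. Most of these copies are processed pseudogenes, and 1 of the copies has a row of its own in the table. For Psme2 the other gene is Psme2b, at 99.37% identity over 794 nt. The values of these genes are uncertain to that extent. 5 of the genes (Psmb5, Psmc6, Psmd6, Psme1 and Psme2) lie on chromosome 14, as Lrtm1 does.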

How the data were processed

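A single table was used, of log2 CPM that the authors had adjusted before they deposited it. Libraries were stranded oligo-dT libraries from TRIzol RNA, per the labels' protocols, and fastp (trimming), kallisto (assignment of reads to transcripts) and limma were used, per the submitters' processing notes. Their versions, the genome build, the annotation and the use of strand in counting are not stated in any source used here. Converted back, the deposited log2 values sum to between 960166 and 1016398 CPM in a library. Counts were not used here, so depth is unknown, and intervals for counting error are left out.

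With genotype in the fit, litters differ by at most 6.7e-14 in any gene, so litter effects had been removed, and the residuals span 3 dimensions where 6 would remain. The test was limma 3.58.1 in R 4.3.3 (lmFit, eBayes with a trend), two-sided, with litter, genotype and the 3 empty dimensions as terms, on genes that averaged 0 log2 CPM or more (12223 tested, 1269 left out), with Benjamini-Hochberg adjustment over all of them and a threshold of 0.05. No pseudocount was added. Its standard errors are lower bounds, since variation shared by genotype and the removed terms is lost from the values, and SDs are those of the adjusted values. The steps were run on simulated data, with checks on the number of empty dimensions and the size of the differences. The rate of false calls was not among the checks.

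Members and gene lists were chosen with earlier results of these data known. Values in every library are given for genes past the threshold in either fit, for the catalytic genes and for the 2 largest differences in each direction, and as ranges for Psme and Psmg genes. Pathway genes were named where they passed in either fit, except a gene that is not reported here, plus Pomp, Nfe2l1, Usp14, Adrm1 and, after its values were seen, Tap1. Members named otherwise were also chosen after their values were seen. Lengths are of the longest protein-coding transcript in GENCODE M21 on GRCm38, a choice made after the annotation was read, where any annotated transcript had been planned. They were found for 99.1% of tested genes, and near-identical copies were searched with blastn 2.17.0. Alternatives changed the terms of the fit, the filter, the scaling, the moderation and the libraries.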

Additional observations from a re-analysis of the deposited data

Results flagged for a closer look

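Of 96 groups of 5 libraries, 2 held a library far from the others, where chance flags about 1 in 20. Psmf1 in KO 4 was 3.59 log2 CPM, the lowest KO value, with the nearest KO library at 3.69 and the highest at 3.71, a gap of 0.802 of the range. Psmb3 in KO 4 was 6.03 log2 CPM, the highest KO value, with the nearest at 5.95 and the lowest at 5.94, a gap of 0.831 of the range.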

How the results depend on the processing

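The count of proteasome genes past the threshold was 0 in the fit as reported and 5 with litter and genotype alone, and 0 under the other alternatives to the fit as reported, including those that left out 1 library each. The median difference, -0.056, lay between -0.067 (quantile normalization) and -0.026 (transcript length trend removed), and between -0.066 and -0.049 when 1 library was left out. With the replicate number as a block it was -0.062 and the count was 0. Deviations of the KO and WT libraries of the same number correlated at -0.85, 0.45, 0.03 and -0.50 for replicates 1, 3, 4 and 5. Litter had been removed, so deviations cancel out within each litter. These correlations therefore cannot decide whether the numbers pair the libraries. As reported there was no call to lose or reverse, and 15 genes, all under 0.1 in size, changed sign under at least 1 alternative. Over all genes the count of calls, 41, was 1 without the trend in moderation, 24 after quantile normalization and 128 with the replicate block. It was 8 without WT 1, 11 without KO 3, 17 without WT 6 and 20 without WT 5. The median of the 3 immunoproteasome genes was -0.083 with a minimum mean of 1, where Psmb9 drops out. Leaving out each library from the fit with litter and genotype alone was an alternative added after the data were seen, and gave between 0 and 6 proteasome genes. The depth is unknown, and the 95% half-width of a proteasome gene was between 0.11 and 0.46, before adjustment over all genes. Smaller differences were not detectable. Larger ones could also fail to pass, as for Psmd14 at -0.16 (-0.28 to -0.03, limma adjusted p = 0.380).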
